A study of Homo sapiens with 6 samples.

Results

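The ATP-binding cassette (ABC) transporters were followed in QBC-939, a human line from cancer of the bile duct, after an shRNA against BMI1 had been delivered. Members were the rows of the expression table named ABC with a subfamily letter from A to G and a number, as long as the name occurred once, which gave 40 of 27238 rows. They comprised 11 ABCA, 8 ABCB, 10 ABCC, 3 ABCD, 1 ABCE, 2 ABCF and 5 ABCG genes. ABCC13, counted among them, is annotated as a transcribed pseudogene. The tested cells had received Bmi1 shRNA and the control cells a scrambled shRNA, both for 48 h, with 3 libraries each that the labels describe as independent transfections of this 1 line. The design text calls the control reagent an siRNA. No source used here gives the shRNA sequence or, beyond the term transfection, its mode of delivery. Poly(A) RNA was sequenced, and levels are in FPKM, which divide the fragments of a gene by its transcript length and by the mapped fragments of the library, so that levels can be set side by side between genes.

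ABC proteins share a nucleotide-binding domain that splits ATP, and most of them use it to move a substrate across a membrane. In the bile duct and the liver they are known for carrying bile salts, bilirubin conjugates, phospholipid, sterols and drugs into bile or back into blood, while other members serve peroxisomes, mitochondria and lysosomes. Members of subfamilies E and F have no membrane-spanning part and act on ribosomes and translation factors.

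BMI1, the RING finger protein of Polycomb repressive complex 1 that the shRNA is aimed at, measured 1.49, 1.19 and 2.65 FPKM in the Bmi1 shRNA libraries, against 6.65, 5.34 and 6.09 FPKM in the control libraries. It was lower in 3 of 3 Bmi1 shRNA libraries (log2 fold change of FPKM + 1 -1.37, SE 0.19; limma, adjusted p = 0.00162). By exact permutation, two-sided, its p was 0.1, which is the lowest value open to 3 libraries against 3. All 8 markers of ductal epithelium were detected, among them EPCAM at a mean of 169 and 164 FPKM in Bmi1 shRNA and control libraries, and 4 of them, CDH1, KRT18 and KRT19 included, were lower, with the 8 together at 1541 to 1774 against 1810 to 1971 FPKM. Of 6 hepatocyte markers with a row, SERPINA1 and TTR were tested and both were higher, with the 6 together at 228 to 239.7 FPKM in Bmi1 shRNA libraries and 156 to 166 FPKM in control libraries. The 2 fibroblast and 2 endothelial markers with a row reached at most 0.414 and 0.0360 FPKM in sum, the 2 adipocyte markers at 1.23 to 1.37 against 1.57 to 1.98 FPKM, and the sum of 3 leukocyte markers (1517 to 1578 against 1427 to 1529 FPKM) was nearly all LYZ, a secreted enzyme that epithelia also make. Of all tested rows, 28.6% were higher and 28.5% lower. No marker with a row was at 0 in all 6 libraries. The part of these markers in the ABC results was not tested.

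Of the 40 ABC genes, 19 had a mean of at least 1 FPKM over the 6 libraries and were tested, and 21 lay below that level. Among the 19, 3 were higher after Bmi1 shRNA, ABCE1 and ABCD3 included, 9 were lower, ABCC3, ABCA3, ABCA2, ABCC1, ABCF3, ABCC10, ABCF1 and ABCD4 included, and 7 were not called. The call was an adjusted p under 0.05 from limma on log2(FPKM + 1), with Benjamini-Hochberg adjustment over all 11016 tested rows. The higher genes made up 15.8% of the tested members, where 28.6% of all tested rows were higher, and the lower genes made up 47.4%, where 28.5% of all tested rows were lower. The median log2 fold change was -0.16 over the 19 members and -0.02 over all tested rows. In 16 of the 19 the groups of libraries did not overlap, 4 with the Bmi1 shRNA libraries above and 12 with them below, where the groups did not overlap in 65.4% of all tested rows. No gene among the 12 lost its call when any 1 library was left out. Values with ± are means with the SD over 3 libraries, and the p-values measure the spread between these transfections of 1 cell line.

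**Figure D1:**
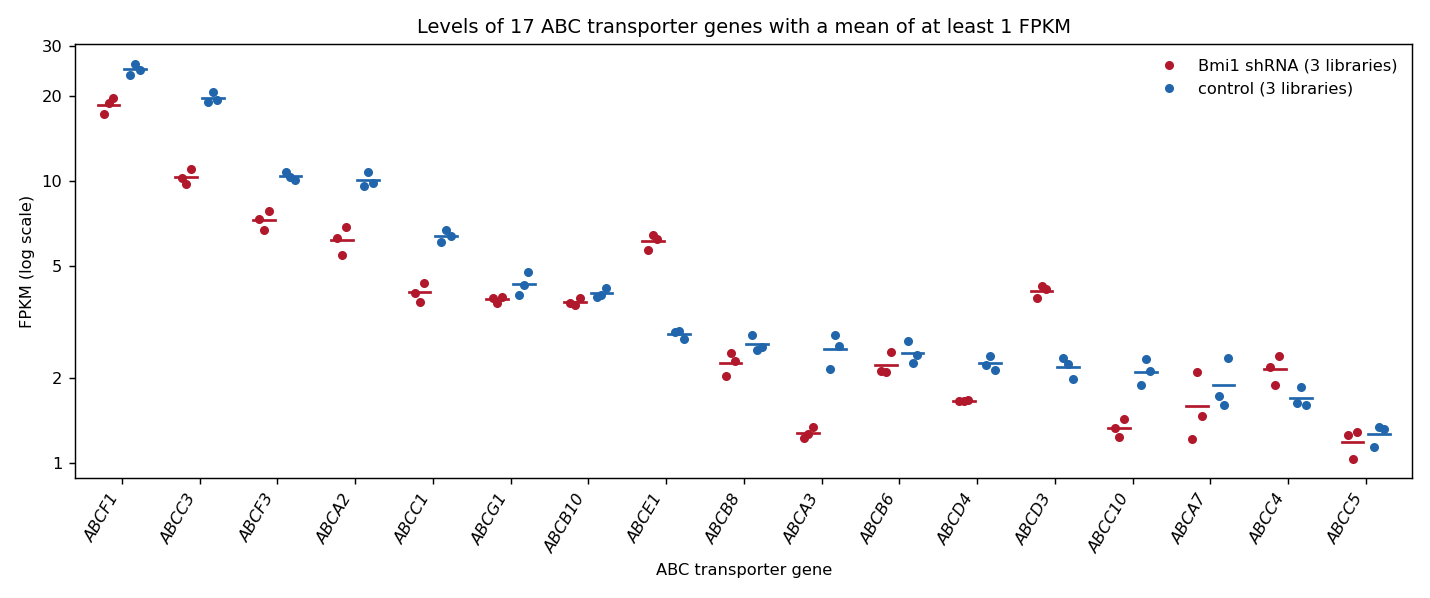
FPKM (log scale) of 17 tested ABC transporter genes in each library, in order of their mean in control libraries, with red points for the 3 Bmi1 shRNA libraries, blue points for the 3 control libraries and a bar at each mean. ABCE1 and ABCD3 stand above their controls, while ABCC3 averages 10.3 against 19.7 FPKM and ABCA3 1.28 against 2.54 FPKM.

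The direction of change went with the base composition of the transcript, among the ABC genes as among all genes. The GC content was 38.4% for ABCE1 and 37.7% for ABCD3, which were higher, and ran from 51.5% to 63.7% over the 8 genes named above as lower. Between GC content and fold change, Spearman's rho was -0.686 over the 19 members and -0.473 over 10225 tested rows with a known transcript. Both are correlations across genes of the same libraries, given as descriptions. The tested members had a median GC content of 54.9% and a median transcript length of 4146 bases, where all tested rows had 50.4% and 2920 bases. A second fit was therefore made in which the trend with GC content and length was first taken out of each library; this also takes out any true change that runs with them. In it, 3 members were higher (ABCE1, ABCD3 and ABCC5), where 19.1% of all tested rows were, and 5 were lower (ABCC3, ABCA3, ABCA2, ABCC1 and ABCF3), where 20.5% of all tested rows were. The median log2 fold change of the members was then -0.03, against -0.02 over all rows. ABCE1 and ABCD3 were thus called higher and ABCC3, ABCA3, ABCA2, ABCC1 and ABCF3 lower in both fits. In a pair of further removals, both chosen after seeing the data, the calls differed again. With medians of GC content and length over a gene's transcripts, in place of the longest one, 1 member was higher (ABCE1) and 8 were lower, where 21.9% and 24.9% of all tested rows were. With GC content alone removed, 2 were higher (ABCE1 and ABCD3) and 9 lower, where 21.8% and 26.1% of all tested rows were. ABCC10 and ABCF1, not called lower in the second fit, were called lower in both of these. The part of GC content in the differences was not tested.

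**Figure D2:**
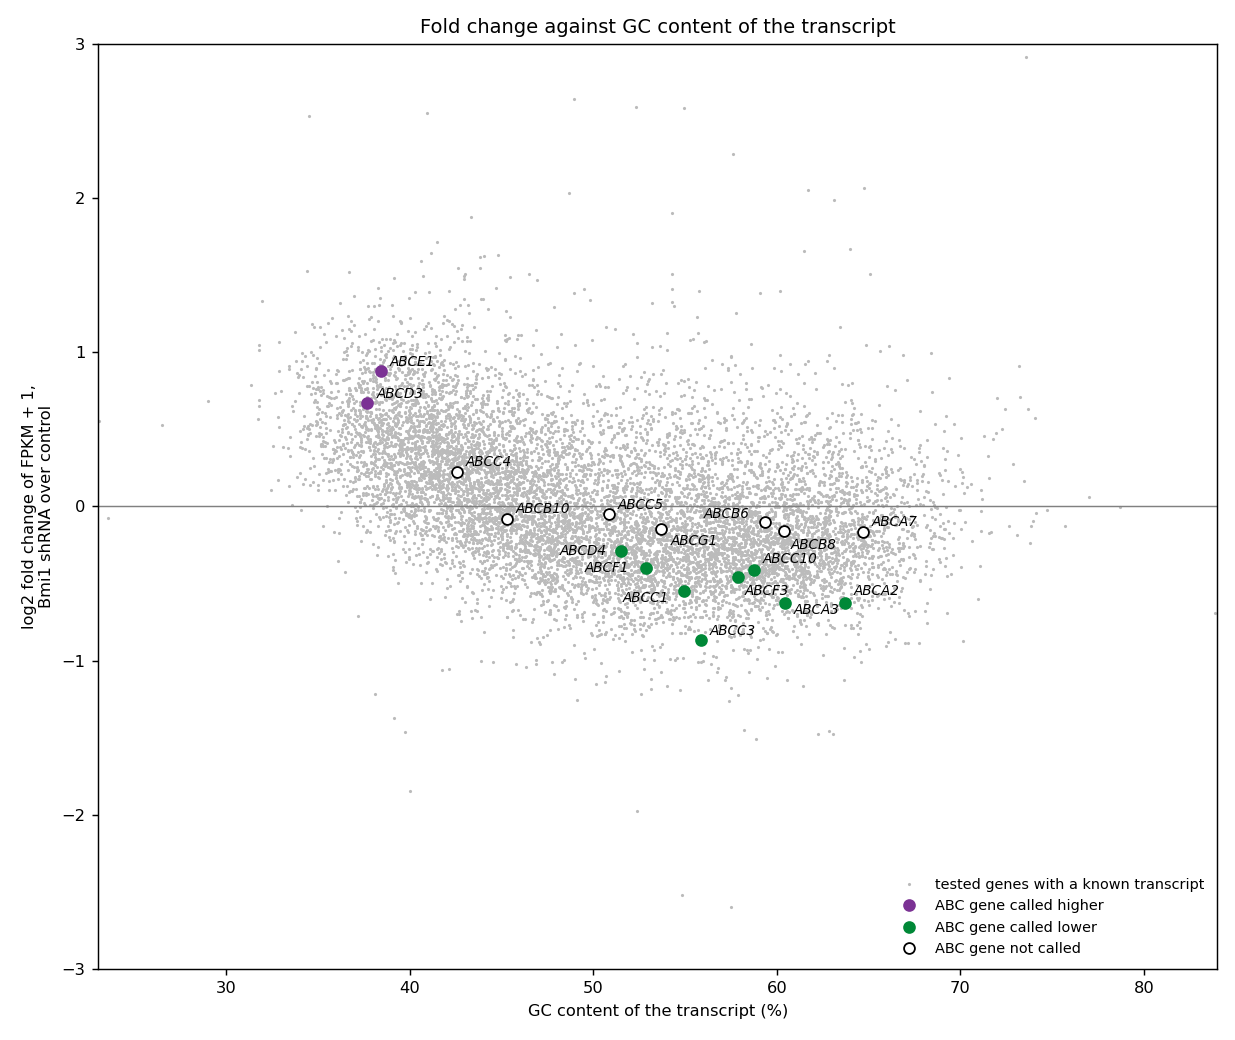
log2 fold change of FPKM + 1 (Bmi1 shRNA over control) against the GC content (%) of the longest coding transcript, with gray points for tested genes and large symbols for 17 tested ABC transporter genes. The called genes that are higher (purple, ABCE1 and ABCD3) lie at 38.4% and 37.7% GC and the 8 that are lower (green) between 51.5% and 63.7% GC.

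**Figure D3:**
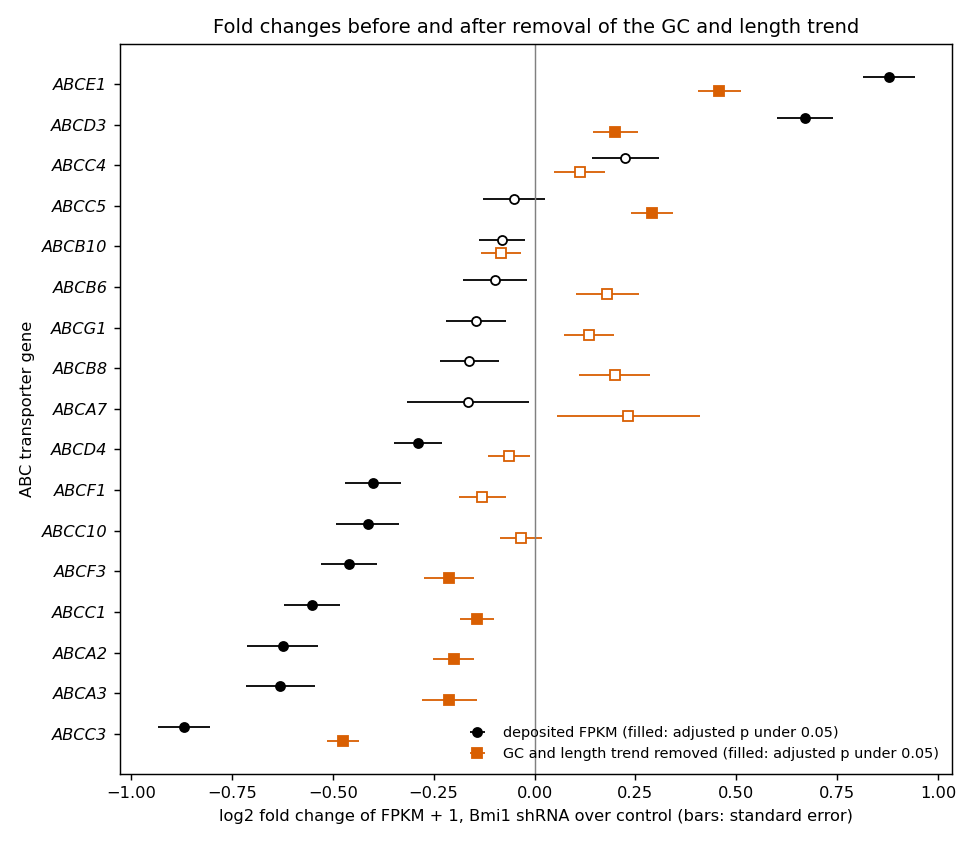
log2 fold change of FPKM + 1 (Bmi1 shRNA over control) with its standard error for 17 tested ABC transporter genes, from the deposited FPKM (black circles) and after the GC and length trend was removed (orange squares); filled symbols have an adjusted p under 0.05. ABCE1 is at 0.88 and 0.46 and ABCC3 at -0.87 and -0.47, while ABCC10 has a filled symbol at -0.41 and an open one at -0.03.

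To show the sequence at the start of genes that were called the same way in both fits, the promoter windows of ABCE1 and ABCD3 (higher) and of ABCA3 and ABCF3 (lower) are printed, the 4 such genes with a single entry in the RefSeq table (GRCh38.p14). Each window holds 250 bases before and 50 bases after the annotated start, 5′ to 3′ on the gene's strand. Capitals mark matches, on either strand, to the GC box GGGCGG, the antioxidant response element core TGACNNNGC, the cyclic AMP response element TGACGTCA and the YY1 core GCCATNTT. The last 2 were added to the search after the sequences had been seen.
ABCE1, chr4:145098061-145098360, forward strand: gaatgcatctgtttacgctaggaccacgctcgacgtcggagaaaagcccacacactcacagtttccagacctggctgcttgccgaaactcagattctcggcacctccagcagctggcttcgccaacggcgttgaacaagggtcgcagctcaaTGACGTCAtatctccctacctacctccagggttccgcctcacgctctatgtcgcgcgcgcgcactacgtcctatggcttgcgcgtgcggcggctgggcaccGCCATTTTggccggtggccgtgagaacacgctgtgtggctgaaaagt
ABCD3, chr1:94418139-94418438, forward strand: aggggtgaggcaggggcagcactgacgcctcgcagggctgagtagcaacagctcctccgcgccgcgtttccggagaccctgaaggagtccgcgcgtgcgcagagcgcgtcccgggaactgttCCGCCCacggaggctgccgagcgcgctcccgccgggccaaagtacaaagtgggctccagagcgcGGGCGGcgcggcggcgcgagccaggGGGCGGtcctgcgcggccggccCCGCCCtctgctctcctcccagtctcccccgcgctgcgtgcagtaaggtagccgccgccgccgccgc
ABCA3, chr16:2340679-2340978, reverse strand: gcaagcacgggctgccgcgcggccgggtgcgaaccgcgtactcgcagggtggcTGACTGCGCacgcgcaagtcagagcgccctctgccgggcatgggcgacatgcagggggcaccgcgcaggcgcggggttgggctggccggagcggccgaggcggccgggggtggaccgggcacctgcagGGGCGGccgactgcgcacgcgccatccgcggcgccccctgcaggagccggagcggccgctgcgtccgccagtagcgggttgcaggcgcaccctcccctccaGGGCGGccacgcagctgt
ABCF3, chr3:184185949-184186248, forward strand: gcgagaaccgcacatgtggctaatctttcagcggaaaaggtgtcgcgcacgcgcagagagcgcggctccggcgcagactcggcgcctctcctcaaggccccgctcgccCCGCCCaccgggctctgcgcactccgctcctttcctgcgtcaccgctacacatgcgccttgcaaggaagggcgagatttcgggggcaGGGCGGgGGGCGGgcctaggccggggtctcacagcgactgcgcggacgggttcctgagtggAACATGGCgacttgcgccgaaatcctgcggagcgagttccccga

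The ABCE1 window holds 1 cyclic AMP response element, found in 1.85% of all 35116 promoter windows of the table, and 1 YY1 core, found in 6.58%, but no GC box. ABCD3 has 4 GC boxes, ABCF3 3 with 1 YY1 core, and ABCA3 2 with 1 antioxidant response element core. GC boxes occur in 45.0% of all windows and the antioxidant response element core in 13.3%. None of the 4 windows holds a CCAAT box (CCAAT, 34.6% of all windows), a TATA box (TATAAA, 11.5%), an E box (CACGTG, 7.26%) or an E2F core (GCGGGAA, 6.55%), which were searched in the same way. None of the marked matches overlapped another. The windows are 59.7% GC for ABCE1, 75.0% for ABCD3, 78.0% for ABCA3 and 68.3% for ABCF3, where the median over all windows was 58.7%. ABCE1 and ABCD3, whose transcripts lie below the median GC content of tested genes, have promoter windows above the median of the table. The table also holds windows of genes that were not tested, so these medians come from unlike sets. Over the 12 tested members with 1 entry, the windows ran from 59.7% (ABCE1) to 79.7% GC with a median of 68.5%. These matches are descriptions of the sequence, not sites of binding.

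Among the ABC proteins of translation, ABCE1 was higher while ABCF1 and ABCF3 were lower. ABCE1 splits ribosomes into subunits after termination or rescue so that they can start again. It measured 5.70, 6.45 and 6.23 FPKM in the Bmi1 shRNA libraries, against 2.92, 2.93 and 2.77 FPKM in the control libraries. Every Bmi1 shRNA library stood well above every control library, and the ratio of means was 2.13 (6.13 ± 0.384 and 2.87 ± 0.0932 FPKM, SD, n = 3 each; log2 fold change 0.88, SE 0.06; limma, adjusted p = 0.000282). After the GC and length trend was removed the log2 fold change was 0.46 (adjusted p = 0.00172). The gene (ENSG00000164163.10) lies on chromosome 4 from 145097932 to 145129179, forward strand, in GENCODE 29 (GRCh38). Its exons share 469 bases with ANAPC10, 276 with OTUD4 and 243 with AC098588.1, all on the opposite strand. No source used here says whether counting used strand, and reads of these overlaps cannot be told apart. OTUD4 went the other way, at 1.05 ± 0.0166 against 1.43 ± 0.0812 FPKM (limma, adjusted p = 0.0131), and ANAPC10 at 1.48 ± 0.0845 against 1.17 ± 0.163 FPKM was not called.

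ABCF1, which binds the initiation factor eIF2 and promotes the start of translation, had the highest level of all members. It measured 17.2, 18.8 and 19.7 FPKM in the Bmi1 shRNA libraries, against 23.8, 26.0 and 24.7 FPKM in the control libraries. The groups did not overlap and the log2 fold change was -0.40 (SE 0.07; limma, adjusted p = 0.00342), but it was -0.13 and not called without the GC and length trend (adjusted p = 0.123). It was called lower with medians over transcripts (-0.26, adjusted p = 0.0195) and with GC content alone removed (-0.24, adjusted p = 0.0230). ABCF3, a soluble ABC protein of the same subfamily, measured 7.34, 6.71 and 7.85 FPKM with Bmi1 shRNA, against 10.8, 10.4 and 10.1 FPKM in control. All Bmi1 shRNA libraries were lower, with a log2 fold change of -0.46 (SE 0.07; limma, adjusted p = 0.00216) that was -0.21 without the trend (adjusted p = 0.0383). ABCF2 has 2 rows under its name and is not analysed here. Among all tested rows 28.6% were higher and 28.5% lower, and 19.1% and 20.5% without the trend. Of 24 tested genes of ribosome rescue, recycling and initiation, 9 were higher and 5 lower, and 8 were higher and 7 lower without the trend. The 3 with the smallest p were higher: DENR, which helps to recycle the small subunit (23.2 ± 1.27 against 10.5 ± 0.804 FPKM), EIF5B, which joins the subunits (11.5 ± 0.722 against 5.34 ± 0.290 FPKM), and EIF2S2, the beta subunit of eIF2 (68.7 ± 3.34 against 35.1 ± 2.23 FPKM; limma, adjusted p from 0.000267 to 0.00028), and all 3 were also called higher without the trend. With medians over transcripts the list had 4 higher and 8 lower.

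Of the peroxisomal members, ABCD3 was higher. ABCD3, which brings branched-chain fatty acids and the precursors of bile acids into the peroxisome, measured 3.87, 4.23 and 4.16 FPKM in the Bmi1 shRNA libraries, against 2.36, 2.25 and 1.99 FPKM in the control libraries. All Bmi1 shRNA libraries were higher, by a ratio of means of 1.86 (log2 fold change 0.67, SE 0.07; limma, adjusted p = 0.000621). Without the GC and length trend the log2 fold change was 0.20 (adjusted p = 0.0310), with medians over transcripts it was 0.12 and not called (adjusted p = 0.144), and with GC content alone removed it was 0.18 and called higher (adjusted p = 0.0435). The gene (ENSG00000117528.12) lies on chromosome 1 from 94418455 to 94518666, forward strand (GRCh38).

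ABCD4, which releases vitamin B12 from lysosomes, measured 1.67, 1.66 and 1.67 FPKM in the Bmi1 shRNA libraries, against 2.23, 2.40 and 2.14 FPKM in the control libraries. It was lower throughout (log2 fold change -0.29, SE 0.06; limma, adjusted p = 0.00694), and not called without the trend (-0.06, adjusted p = 0.370), with medians over transcripts (-0.12, adjusted p = 0.124) or with GC content alone removed (-0.15, adjusted p = 0.0705); 624 of its exon bases are shared with AC005519.1 on the same strand. Of 30 tested genes of peroxisomal oxidation, biogenesis and B12 handling, 12 were higher and 5 lower, against 28.6% and 28.5% of all tested rows. Without the trend 8 were higher and 3 lower, against 19.1% and 20.5% of all tested rows. SCP2, the thiolase that shortens the bile acid side chain, was at 7.57 ± 0.0487 against 3.43 ± 0.244 FPKM (limma, adjusted p = 0.000247). HSD17B4, which acts one step earlier, was at 4.22 ± 0.199 against 2.47 ± 0.0767 FPKM (adjusted p = 0.000587). MMADHC, which handles B12 after its release, was at 24.1 ± 1.39 against 11.3 ± 0.865 FPKM (adjusted p = 0.00028). These 3, the smallest p-values of the list, were also called higher without the trend.

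Most mitochondrial members were not called. ABCB8 averaged 2.27 ± 0.210 and 2.65 ± 0.166 FPKM in Bmi1 shRNA and control libraries, ABCB6, a porphyrin transporter also placed in lysosomes, 2.24 ± 0.205 and 2.47 ± 0.229 FPKM, and ABCB10, an inner membrane protein tied to heme synthesis, 3.73 ± 0.104 and 4.01 ± 0.161 FPKM. None of these 3 was called in either fit (limma, adjusted p from 0.104 to 0.325 with the deposited values). ABCB10 was called lower with medians over transcripts (-0.25, adjusted p = 0.0111) and with GC content alone removed (-0.17, adjusted p = 0.0412), against a log2 fold change of -0.08 with the deposited values, and ABCB8 was called lower when each library was scaled to one total (-0.28, adjusted p = 0.0377). ABCB6 shares 2864 exon bases with AC068946.2 on the same strand, and reads of the pair cannot be told apart. ABCB10 has 3 pseudogenes with rows of their own, and no source used here says how reads that fit several copies were assigned. Of 35 tested genes of iron-sulfur and heme metabolism, 11 were higher and 9 lower, against 28.6% and 28.5% of all tested rows. Without the trend 6 were higher and 10 lower, against 19.1% and 20.5% of all tested rows. The 11 became 7 without control replicate 2, Bmi1 shRNA replicate 1 or Bmi1 shRNA replicate 2. The 9 became 5 with medians over transcripts and 4 with GC content alone removed. The first enzymes of heme synthesis were lower: ALAS1 at 22.0 ± 1.49 against 33.3 ± 1.21 FPKM and ALAD at 5.89 ± 0.130 against 8.51 ± 0.280 FPKM (limma, adjusted p = 0.000867 and 0.000889), also without the trend (log2 fold changes -0.40 and -0.21).

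The group called bile export here takes in export toward blood as well as into bile. Its level was carried by a single gene, ABCC3, which was lower. ABCC3 (MRP3) sits on the basolateral side of bile duct and liver cells and returns bile salts and glucuronides to blood. It measured 10.3, 9.79 and 11 FPKM in the Bmi1 shRNA libraries, against 19, 20.7 and 19.4 FPKM in the control libraries. The Bmi1 shRNA libraries were tightly grouped at about 52.5% of the control mean (10.3 ± 0.605 and 19.7 ± 0.875 FPKM, SD, n = 3 each; log2 fold change -0.87, SE 0.06; limma, adjusted p = 0.0003). Without the GC and length trend the log2 fold change was -0.47 (adjusted p = 0.00081), and ABCC3 was the one member called lower in each alternative that was run. The gene (ENSG00000108846.15) lies on chromosome 17 from 50634777 to 50692252, forward strand (GRCh38). ABCC4 (MRP4), which exports bile salts with glutathione as well as cyclic nucleotides, measured 2.20, 1.89 and 2.41 FPKM with Bmi1 shRNA, against 1.64, 1.86 and 1.61 FPKM in control. The groups came close but did not overlap, and the difference was not called (log2 fold change 0.23, SE 0.08; limma, adjusted p = 0.0556), though it was called higher without Bmi1 shRNA replicate 2 and under upper quartile scaling (adjusted p = 0.0290 and 0.0298). Without the trend it was 0.11 and not called (adjusted p = 0.207).

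The other 7 members of the bile export group were under 1 FPKM, the highest value being 0.595 FPKM for ABCG2, the breast cancer resistance protein, in 1 Bmi1 shRNA library. ABCG2 averaged 0.476 ± 0.115 and 0.473 ± 0.0418 FPKM in Bmi1 shRNA and control libraries, and ABCC2 (MRP2), the canalicular exporter of bilirubin conjugates, 0.300 ± 0.0534 and 0.213 ± 0.0400 FPKM. The bile salt export pump ABCB11, the phosphatidylcholine floppase ABCB4, the drug pump ABCB1 (P-glycoprotein) and the sterol pair ABCG5 and ABCG8 stayed under 0.035 FPKM in every library, and each was listed at 0 in at least 1. In sum, the bile export group stood at 13.3 ± 0.912 FPKM with Bmi1 shRNA and 22.1 ± 1.04 FPKM in control. ABCC3 made up 76.7% to 78.4% of that sum in the Bmi1 shRNA libraries and 88.7% to 89.7% in the control libraries. Since ABCC3 returns its substrates to blood, the sum is not a measure of export into bile.

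The drug and conjugate exporters beside ABCC3 were ABCC1, ABCC10, ABCC4 and ABCC5 among the tested genes. ABCC1 (MRP1), the exporter of glutathione conjugates and many cancer drugs, measured 4.03, 3.74 and 4.35 FPKM in the Bmi1 shRNA libraries, against 6.08, 6.69 and 6.38 FPKM in the control libraries. It was lower in all 3 (log2 fold change -0.55, SE 0.07; limma, adjusted p = 0.00113), and -0.14 without the GC and length trend (adjusted p = 0.0398). ABCC10 (MRP7), which exports taxanes, measured 1.33, 1.24 and 1.44 FPKM, against 1.89, 2.34 and 2.12 FPKM in control. All Bmi1 shRNA libraries were lower (log2 fold change -0.41, SE 0.08; limma, adjusted p = 0.00465), yet the difference was -0.03 without the trend (adjusted p = 0.634). It was called lower with medians over transcripts (-0.26, adjusted p = 0.0165) and with GC content alone removed (-0.23, adjusted p = 0.0224). ABCC5 (MRP5), an exporter of cyclic nucleotides, measured 1.26, 1.04 and 1.29 FPKM with Bmi1 shRNA, against 1.14, 1.35 and 1.33 FPKM in control. The groups overlapped and the log2 fold change of -0.05 (SE 0.08; limma, adjusted p = 0.601) turned to 0.29 without the trend, where it was called higher (adjusted p = 0.00711), but to 0.10 and not called with medians over transcripts (adjusted p = 0.235) and 0.08 with GC content alone removed (adjusted p = 0.330). The sum over the group, which shares ABCC3, ABCC4, ABCC2, ABCG2 and ABCB1 with the bile export group, was 19.9 ± 1.40 FPKM with Bmi1 shRNA and 31.9 ± 1.63 FPKM in control.

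The genes that work with these exporters gave a mixed picture. Beside the counts below, 28.6% of all tested rows were higher and 28.5% lower, and 19.1% and 20.5% without the GC and length trend. Of 15 tested genes of bile salt, bilirubin and sterol handling, 5 were higher and 3 lower, and 2 were higher and 2 lower without the GC and length trend. The lower ones were 5 with medians over transcripts, with quantile normalization and with each library scaled to one total. PDZK1, a scaffold that holds transporters at the apical membrane, was at 4.73 ± 0.367 FPKM in Bmi1 shRNA libraries, against 1.27 ± 0.349 FPKM in control libraries (limma, adjusted p = 0.000467), and RDX, the radixin that anchors ABCC2 in liver, at 1.81 ± 0.149 against 0.823 ± 0.119 FPKM (adjusted p = 0.00115). SLCO4A1, an uptake carrier, was lower at 14.4 ± 0.984 against 23.7 ± 2.05 FPKM (adjusted p = 0.000997). Of 19 tested conjugation enzymes, which make the substrates of ABCC1 and ABCC3, 8 were higher and 2 lower, and 6 were higher and 5 lower without the trend. Leaving out Bmi1 shRNA replicate 1, Bmi1 shRNA replicate 3, control replicate 2 or control replicate 3 turned the 2 into 1. The glutathione transferases MGST3 (38.1 ± 1.80 against 20.8 ± 1.37 FPKM), GSTO1 (126 ± 7.73 against 72.9 ± 7.06 FPKM) and GSTA4 (2.46 ± 0.292 against 1.01 ± 0.116 FPKM) were all higher (limma, adjusted p from 0.000332 to 0.000778). Of 19 tested regulators of transporter genes 2 were higher and 11 lower, and 2 were higher and 5 lower without the trend. NR0B2, the corepressor SHP that answers to bile acids, was at 37.7 ± 2.43 against 22.6 ± 0.950 FPKM (adjusted p = 0.000467) and NFE2L2, the stress factor NRF2, at 26.2 ± 0.958 against 17.1 ± 0.929 FPKM (adjusted p = 0.000629). PPARD, a receptor for fatty acids, was lower at 7.02 ± 0.641 against 12.4 ± 0.520 FPKM (adjusted p = 0.000572). The 9 genes named here kept their direction and call without the trend, with log2 fold changes of 1.11 for PDZK1, 0.24 for RDX and -0.43 for SLCO4A1, though RDX was not called with GC content alone removed (0.17, adjusted p = 0.0846).

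Of the lipid transporters, ABCA2 and ABCA3 were lower. ABCA3, which loads phospholipid into the lamellar bodies of the lung, measured 1.23, 1.27 and 1.35 FPKM in the Bmi1 shRNA libraries, against 2.16, 2.84 and 2.61 FPKM in the control libraries. The groups stood apart, with a ratio of means of 0.504 (log2 fold change -0.63, SE 0.09; limma, adjusted p = 0.00152), and the difference was -0.21 without the GC and length trend (adjusted p = 0.0495). The gene (ENSG00000167972.13) lies on chromosome 16 from 2275881 to 2340746, reverse strand (GRCh38). ABCA2, a lipid transporter of late endosomes and lysosomes, measured 6.26, 5.46 and 6.86 FPKM with Bmi1 shRNA, against 9.59, 10.8 and 9.87 FPKM in control. It was lower in all 3 libraries (log2 fold change -0.62, SE 0.09; limma, adjusted p = 0.00169), and -0.20 without the trend (adjusted p = 0.0230). Neither tested exporter of cholesterol was called: ABCG1, which passes cholesterol to HDL, averaged 3.81 ± 0.111 and 4.33 ± 0.422 FPKM in Bmi1 shRNA and control libraries (limma, adjusted p = 0.138), and ABCA7 1.6 ± 0.452 and 1.90 ± 0.400 FPKM (adjusted p = 0.386). ABCA1, the exporter that forms nascent HDL, lay under the level for testing at 0.324 ± 0.0535 and 0.212 ± 0.0364 FPKM.

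The order of the members by level was alike at its top and differed below it. ABCF1, ABCC3, ABCF3 and ABCA2 held ranks 1 to 4 of the tested members in both groups, with ABCF1 and ABCC3 each apart from the next gene in every library and ABCF3 overlapping ABCA2. ABCE1 stood at rank 5 with Bmi1 shRNA, overlapping ABCA2, and at rank 9 in control, overlapping ABCB8. ABCD3 stood at rank 7 with Bmi1 shRNA and rank 14 in control, ABCC1 at 8 and 5, and ABCA3 at 18 and 11. From rank 11 in Bmi1 shRNA libraries and rank 9 in control libraries, most neighbours overlapped. All 40 members summed to 87.2 ± 4.39 FPKM with Bmi1 shRNA and 112 ± 3.61 FPKM in control, and ABCE1 supplied 6.76% to 7.53% of that sum against 2.49% to 2.70%. Subfamily C stood at 19.6 ± 1.36 against 31.6 ± 1.63 FPKM and subfamily A at 9.82 ± 0.543 against 14.9 ± 0.857 FPKM.

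Within a library, ratios between related members do not depend on the scaling of that library. For 4 pairs, chosen after the values were seen, the ratio was higher in every Bmi1 shRNA library than in any control library. ABCE1 over ABCF1 was 0.330 ± 0.0132 with Bmi1 shRNA and 0.116 ± 0.00616 in control, and ABCE1 over ABCF3 0.844 ± 0.102 and 0.276 ± 0.00633. ABCC4 over ABCC3 was 0.209 ± 0.0138 with Bmi1 shRNA and 0.0864 ± 0.00344 in control, and ABCC1 over ABCC3 0.390 ± 0.00691 and 0.324 ± 0.00462. For every pair an exact permutation test (two-sided, 4 pairs) returned p = 0.1, the lowest possible with 3 libraries a group. Because the pairs were chosen with these values known, this p adds no evidence to the calls of the single genes. In all 4 pairs the gene on top has the lower GC content of its transcript, by the least for ABCC1 and ABCC3 (54.9% and 55.8%), and the part of GC content in the ratios was not tested.

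**Figure D4:**
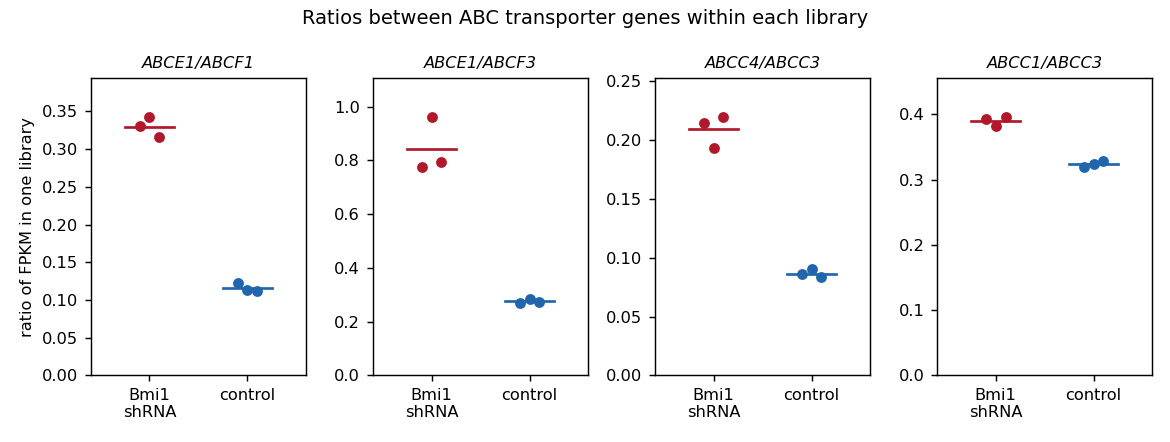
Ratio of FPKM between 2 ABC transporter genes in each library (linear axes from 0, a separate scale in each panel), with points for the 3 Bmi1 shRNA and the 3 control libraries and a bar at each mean. In all 4 panels the Bmi1 shRNA points lie above the control points, from 0.844 against 0.276 for ABCE1 over ABCF3 to 0.390 against 0.324 for ABCC1 over ABCC3.

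The 21 members under a mean of 1 FPKM reached at most 0.741 FPKM, 15 of them averaged under 0.1 FPKM and 13 were listed at 0 in at least 1 library. Low values carry few fragments and the depth of the libraries is unknown, so a gene listed at 0 may still be expressed. ABCB9, a lysosomal peptide transporter, was the highest of them at 0.524 ± 0.0492 against 0.683 ± 0.0499 FPKM, and its exons are shared with ARL6IP4 (1590 bases) and OGFOD2 (1656 bases) on the opposite strand. When no filter was used, 23.4% of all 27238 rows were called, and 1 of the 21 was: ABCA10, at 0.399, 0.280 and 0.319 FPKM in the Bmi1 shRNA libraries, against 0.126, 0.174 and 0.105 FPKM in the control libraries (limma, adjusted p = 0.0172). ABCA10 shares 318 exon bases with its neighbour ABCA5 on the same strand, and ABCA5 averaged 0.0731 ± 0.00226 and 0.0378 ± 0.0146 FPKM. ABCC8, the sulfonylurea receptor of the ATP-sensitive potassium channel, averaged 0.0902 ± 0.0114 and 0.137 ± 0.0140 FPKM. ABCC6, whose loss in humans causes pseudoxanthoma elasticum, was at 0.0538 ± 0.0293 and 0.0405 ± 0.0122 FPKM, and ABCC11 at 0.0361 ± 0.0345 and 0.0599 ± 0.0114 FPKM. ABCC6 has 2 pseudogenes with rows of their own, and how reads that fit several copies were assigned is not known. Exons of ABCC11 share 293 bases with LONP2 on the opposite strand and 86 with AC096996.2 on the same strand. The remaining ABCA4, ABCA6, ABCA8, ABCA12, ABCA13, ABCG4 and the pseudogene ABCC13 reached at most 0.0261 FPKM. ABCA9, ABCB5, ABCC9, ABCC12 and ABCD2 are not analysed here.

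**Figure D5:**
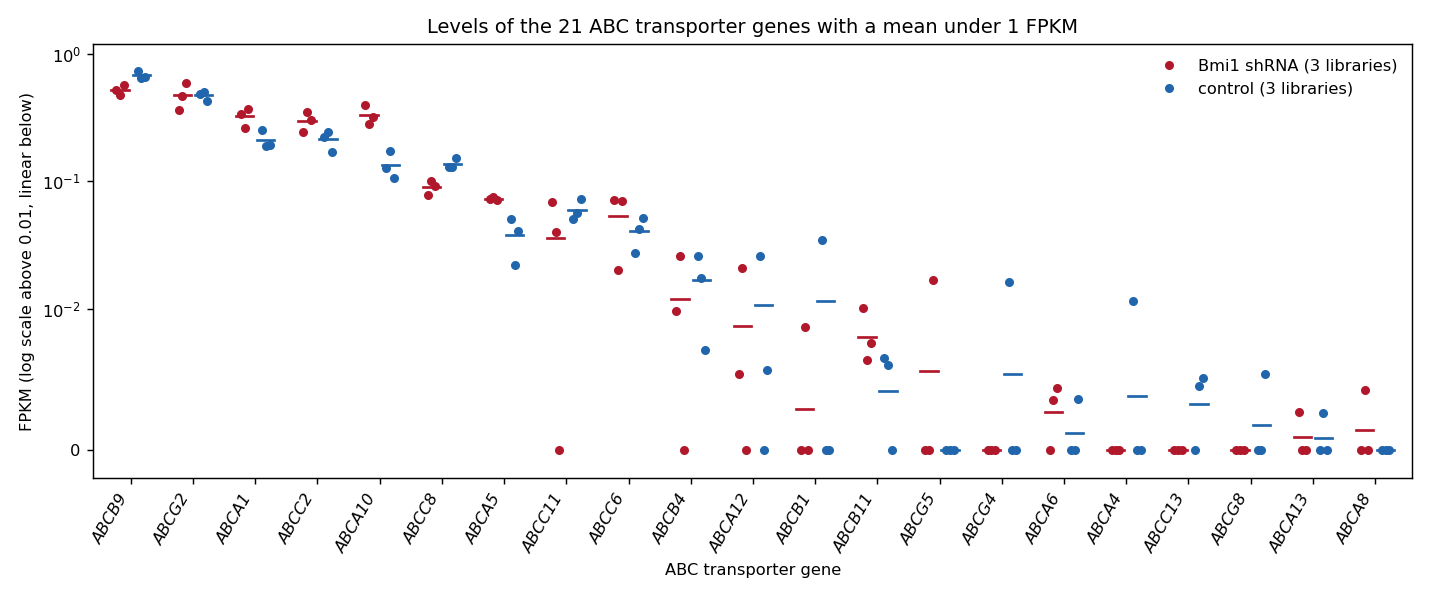
FPKM of the 21 ABC transporter genes with a mean under 1 FPKM in each library (log scale above 0.01 FPKM, linear below), with red points for Bmi1 shRNA, blue points for control and a bar at each mean. The 3 ABCA10 values with Bmi1 shRNA (0.280 to 0.399 FPKM) lie above its control values (0.105 to 0.174 FPKM), and 13 genes have a point at 0.

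ABC genes with names outside the family's scheme were set beside the members. TAP1 and TAP2, which carry peptides into the endoplasmic reticulum for display on MHC class I, were both lower, at 4.14 ± 0.0959 against 6.37 ± 0.202 FPKM and 6.98 ± 0.274 against 12.0 ± 0.0273 FPKM (limma, adjusted p = 0.000651 and 0.000306), also without the GC and length trend. Of 9 tested genes of peptide loading, TAP1 and TAP2 included, 1 was higher and 4 lower, against 28.6% and 28.5% of all tested rows. Without the trend 1 was higher and 3 lower, against 19.1% and 20.5% of all tested rows. Without control replicate 1 or 2, 2 were higher. The higher one was ERAP2, a trimming peptidase, at 3.14 ± 0.249 against 2.02 ± 0.102 FPKM (adjusted p = 0.00226), though not with medians over transcripts (adjusted p = 0.603) or with GC content alone removed (adjusted p = 0.338). CFTR, the chloride channel of the bile duct and the one ABC protein that is an ion channel, measured 4.65, 3.13 and 3.56 FPKM in the Bmi1 shRNA libraries, against 1.86, 2.0 and 2.17 FPKM in the control libraries. All 3 were higher (log2 fold change 0.66, SE 0.12; limma, adjusted p = 0.00455), and 0.45 without the trend (adjusted p = 0.0298), but the call was lost with medians over transcripts (0.24, adjusted p = 0.162) and with GC content alone removed (0.31, adjusted p = 0.0830). Of the 3 tested partners of ABCC8 and ABCC6, KCNJ11, the pore of the potassium channel (1.51 ± 0.176 against 2.34 ± 0.111 FPKM), and ANKH, a transporter tied to pyrophosphate (3.64 ± 0.154 against 4.66 ± 0.376 FPKM), were lower and NT5E, a surface nucleotidase (9.69 ± 0.338 against 8.24 ± 0.580 FPKM), was higher (adjusted p = 0.00394, 0.0136 and 0.0347), and none of the 3 was called without the trend. NT5E also lost its call without control replicate 1 or 2 or any 1 Bmi1 shRNA library (adjusted p up to 0.0994).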

How the data were processed

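Poly(A) RNA of 6 libraries was measured, 3 after Bmi1 shRNA and 3 after scrambled shRNA. The values are FPKM as deposited by the authors in 1 table, whose columns Sh and Sc were taken as Bmi1 shRNA and scrambled shRNA with the replicate number of the titles. The tools were HISAT2 2.0, StringTie 1.3.0 and Bowtie 0.12.2, per the submitters' processing notes, which name the mouse build mm8 for these human cells, so the build is not settled. The extraction protocol in the labels also names adipose material, so its details may not all hold here. No read counts are given. A search of values up to 0.05 FPKM for whole-read steps found 1 common ratio between libraries for no more than 6.26% of them, so the depth is unknown and no count test was run. FPKM sums were 352800 to 360371 in Bmi1 shRNA libraries and 332910 to 341268 in control libraries.

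Values as log2(FPKM + 1) were tested with limma 3.58.1 (R 4.3.3), using eBayes and a variance trend, on the 11016 rows that averaged 1 FPKM or more, adjusted by Benjamini-Hochberg over all of them; permutation tests used SciPy 1.17.1 in Python 3.11.15. Fold changes on that scale understate the change of low genes. GC content and length came from the longest coding transcript in GENCODE 29 (known for 92.8% of tested rows) and were removed from each library by natural splines with 5 degrees of freedom each. The steps were tested on simulated data. Alternatives covered the pseudocount, the filter, scaling, the variance prior, GC content, a replicate block and each library left out. Named genes were all members, BMI1, TAP1, TAP2, CFTR and the 3 smallest p-values of each of 8 partner lists, a few of which are counted but not reported here, besides cell type markers and the genes that overlap ABCE1. The members and the gene lists were chosen with earlier results of these data known. Positions were matched by gene name and are not those of the authors' build.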

Additional observations from a re-analysis of the deposited data

How the results depend on the processing

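The counts of ABC transporter genes called higher (3) and lower (9) held within 1.5 times with a pseudocount of 0.1, no filter, other scaling and no variance trend, and ran from 3 to 4 and from 9 to 9 when 1 library was left out. With a mean of at least 5 FPKM, which leaves 6 members, 0 were called higher, and BMI1, at a lower mean, was not tested. Scaling each library to one total moved the median log2 fold change of all tested genes to -0.10. With the GC and length trend removed 3 were higher and 5 lower. With medians over transcripts, an alternative chosen after seeing the data as was the removal of GC content alone, 1 was higher (ABCE1) and 8 lower, and with GC content alone removed 2 were higher and 9 lower. The block on replicate numbers left 3 higher and 9 lower; same-numbered libraries did not deviate together (r = 0.00374, -0.0791 and -0.0234), so the numbers give no pairing. The block with the trend removed left 2 higher (ABCE1 and ABCC5) and 1 lower (ABCC3). In that fit ABCD3, ABCA3, ABCA2, ABCC1 and ABCF3 lost their calls (limma, adjusted p from 0.0638 to 0.111). The share of all tested rows called in it is not given here. BMI1 stayed lower in every alternative that tested it, from -1.22 to -1.58 without 1 library.

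Of the 7 members that were not called, 6 changed sign in at least 1 alternative and ABCB10 in none. Log2 fold changes with the trend removed, the same with the block, were 0.23 for ABCA7, 0.18 for ABCB6, 0.20 for ABCB8, 0.29 for ABCC5 and 0.13 for ABCG1 (0.135). With medians over transcripts they were 0.066 for ABCB6, 0.099 for ABCC5 and 0.20 for ABCG1, and NT5E was at -0.025. With GC content alone removed they were 0.085 for ABCB6, 0.0165 for ABCB8, -0.036 for ABCC4, 0.080 for ABCC5 and 0.019 for ABCG1. ABCC5 ran from -0.092 to 0.0016 without 1 library, the last without Bmi1 shRNA replicate 2. The causes were not tested. With 3 libraries a group and unknown depth, small differences and genes under 1 FPKM are not resolved.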
